A study of Sus scrofa with 63 samples.

Results

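A set of 10 genes for proteins of fetal blood plasma was followed in the jejunum of late fetal pigs: AFP, ALB, TTR, TF, AHSG, HP, SERPINA1, FGA, FGB and FGG. The members were all array probes whose gene name in the scanner files equals 1 of these symbols in any letter case. By this rule 9 of the 10 genes had a probe and AHSG had none, which gave 45 probes of the 60305 on the array, and 20 probes of 7 genes were bright enough to be tested. Each of 63 male fetuses was delivered by caesarean section and gave 1 sample of mid jejunum, hybridised to a 1-colour array. The fetuses were at day 90 or day 110 of gestation and had 4 genotypes. Large White (LW) and Meishan (MS) fetuses were purebred, LWMS fetuses came from a Meishan sow mated to a Large White sire, and MSLW fetuses came from the reverse cross. At day 90 there were 9 LW, 6 MS, 9 LWMS and 8 MSLW fetuses, and at day 110 there were 9 LW, 7 MS, 9 LWMS and 6 MSLW fetuses. The sows were inseminated with mixed semen of both breeds, so that purebred and crossbred fetuses shared a litter, but the labels do not name the sow and litter mates were treated as independent. Values are log2 processed signals relative to the 75th percentile of the same array, and no level of a probe is set against that of another probe.

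Most plasma proteins are made by hepatocytes and, before birth, also by the yolk sac. AFP is the albumin-like carrier of fetal blood, and ALB is the carrier that takes its place after birth. In several mammals AFP is also made by the fetal gut at a low level and is shut down around birth. TF carries iron, TTR carries thyroid hormone and retinol-binding protein, HP binds free haemoglobin, SERPINA1 inhibits neutrophil elastase, AHSG is a fetal glycoprotein that binds calcium phosphate, and FGA, FGB and FGG encode the 3 chains of fibrinogen. In the pig gene table of the Sscrofa11.1 assembly, ALB, AFP and AFM are direct neighbours, as are FGG, FGA and FGB.

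The array reads each transcript through probes of 60 bases, and several of the probes that carried the results below are shown so that the measured stretch of each transcript can be recognised. They were copied 5′ to 3′ from the probe annotation of the scanner files.
AFP A_72_P442745: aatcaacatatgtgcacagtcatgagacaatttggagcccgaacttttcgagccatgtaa
TF O10046: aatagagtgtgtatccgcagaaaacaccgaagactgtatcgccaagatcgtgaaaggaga
TF A_72_P318598: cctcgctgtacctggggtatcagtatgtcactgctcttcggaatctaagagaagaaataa
SERPINA1 A_72_P795910: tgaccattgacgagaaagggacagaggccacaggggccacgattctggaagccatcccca
HP A_72_P667554: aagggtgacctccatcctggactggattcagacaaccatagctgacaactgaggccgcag
ALB A_72_P579929: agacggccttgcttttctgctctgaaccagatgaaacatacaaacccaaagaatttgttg

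Probes of a gene are not always separate readings. Of the 21 ALB probes, 14 shared a run of at least 15 bases with another ALB probe. The tested ALB probe A_72_P575875 shared 42 bases with A_72_P561100, which was not bright enough to be tested, and the shared run is in capitals in both.
ALB A_72_P575875: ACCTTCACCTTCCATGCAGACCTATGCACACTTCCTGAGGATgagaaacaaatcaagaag
ALB A_72_P561100: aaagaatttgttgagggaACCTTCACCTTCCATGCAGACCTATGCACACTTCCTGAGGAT
The HP probes A_72_P178006 and O9209 were identical over all 60 bases, and O9209 is annotated to haptoglobin and haptoglobin-related protein together. The FGB probe O4115, the FGA probe O1206 and the SERPINA1 probe O4712 are annotated to human entries.

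Between 51.2% and 87.6% of the probes were well above background on an array, and each of the 8 slides held 7 or 8 arrays. One MS day 110 fetus, number 632, went against its jejunum label. Its array gave 2.83 for HOXA10, a homeobox gene of posterior segments, against -8.53 to -2.65 on the other 62 arrays, and 1.23 for HOXA13 against -8.61 to -2.69. For CA1, a carbonic anhydrase of colon epithelium, it gave 3.98 against -7.76 to -1.39. LCT (lactase) was at -1.30 against 1.06 to 6.44, and PDX1, a transcription factor of the upper gut, was at -2.01 against 0.32 to 5.89. The epithelial gene EPCAM was within the range of the others at 5.71. These genes were chosen after their values were seen. Fetus 632 also held the lowest AFP, TF, TTR and SERPINA1 signals of all 63 fetuses on the brightest probes of these genes, so that the members' results are given with all 63 arrays, and the counts of calls and the values that turned on it also without it.

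The number of arrays on which a probe was well above background divided the set. The brightest probes of HP and SERPINA1 passed on 63 of 63 arrays, those of TTR and TF on 62 and that of AFP on 60. ALB lay near background: its 2 tested probes passed on 30 and 31 arrays, 19 further probes passed on 1 to 16 arrays, and the group means over all ALB probes ran from -7.98 to -4.56. The lowest signal that counted as well above background was between -6.30 and -2.65, depending on the array. FGA passed on at most 4 arrays, FGG on at most 9 and FGB on 13, and no FGA or FGG probe was tested. Signal was clear in this gut tissue for AFP, TTR, TF, HP and SERPINA1, was dim for FGB and ALB, and was at or near background for FGA and FGG. The sole FGB probe is annotated to a human entry, as is SERPINA1 O4712, which passed on 4 arrays. How well O4115 reads the pig FGB transcript was not tested. FGB passed the filter only through MS day 90, as did the HP probe A_72_P568194, so a difference from that group was built into their being tested. The AFP probe A_72_P442745 passed it only through groups of day 90, which favoured a fall with age.

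**Figure D1:**
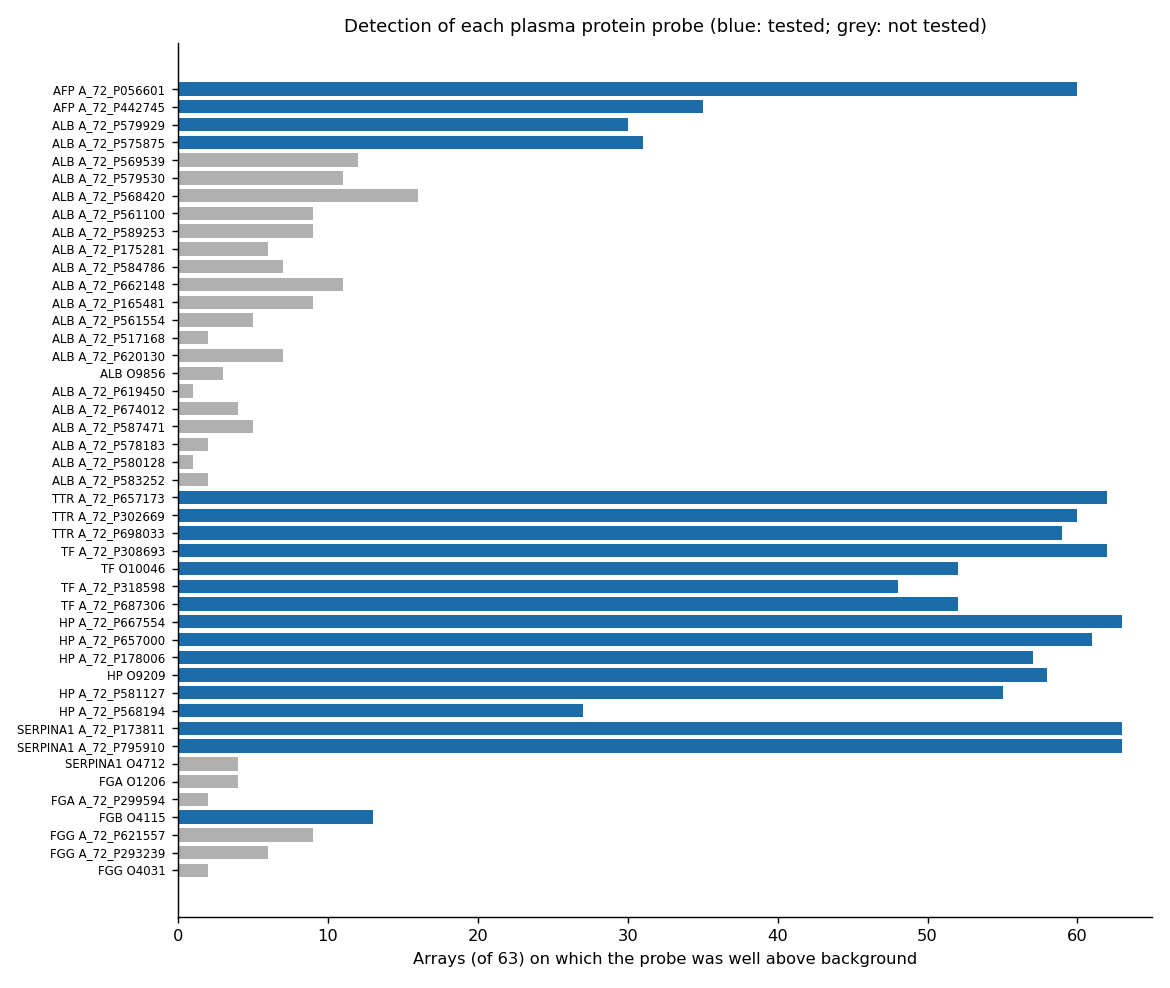
Number of arrays, of 63, on which each of the 45 probes was well above background; blue bars are the 20 probes that were tested and grey bars the others. The bars of AFP, TTR, TF, HP and SERPINA1 reach 60 or more arrays for at least 1 probe, whereas no ALB, FGA, FGB or FGG bar passes 31.

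Age was the main source of difference. Averaged over the 4 genotypes, 11 of the 20 tested probes differed between day 110 and day 90 at an adjusted P value of at most 0.01 and a log2 difference of at least 0.5, where 13.8% of all 40515 tested probes did. Of these 11, 9 were lower at day 110 (7.71% of all tested probes) and 2, both of TTR, were higher (6.07%). The 9 include FGB O4115, HP A_72_P568194 and AFP A_72_P442745, which passed the filter only through groups of day 90. For these probes a lower signal at day 110 was favoured by their being tested. The median log2 difference was -0.47 over the 20 probes and -0.02 over all probes. Without fetus 632 there were 12 calls, since the remaining TTR probe was then called. Within the genotypes, 5 probes were called in LW (4.76% of all), 6 in MS (3.12%), 6 in LWMS (9.86%) and 2 in MSLW (5.43%), all of them lower at day 110. The counts of MS, LWMS and MSLW include A_72_P442745, with the same limit. Any difference between the 8 groups was called for 12 of the 20 probes by limma's F test, and for 28.7% of all probes. Without fetus 632 these counts were 6 in LW, 6 in MS, 9 in LWMS, 2 in MSLW and 16 for any difference. In a piece of whole gut, fewer cells of a type and less RNA per cell cannot be told apart.

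AFP fell most, and in all 4 genotypes. On its brightest probe, A_72_P056601, the LW fetuses lay between -1.56 and 0.55 at day 90 (median -0.61) and between -6.23 and -0.34 at day 110 (median -3.09). The MS fetuses lay between 0.96 and 1.74 at day 90 (median 1.64) and between -6.47 and 0.56 at day 110 (median -2.64), or down to -3.60 without fetus 632. No day 110 fetus reached the day 90 range in MS, and likewise in LWMS, where day 90 spanned 0.56 to 3.46 (median 2.37) and day 110 spanned -2.89 to 0.02 (median -1.15). In LW 7 of 9 day 110 fetuses, and in MSLW 5 of 6, lay below every day 90 fetus of their genotype. The MSLW range was -0.01 to 1.67 at day 90 (median 0.83) and -3.54 to 0.38 at day 110 (median -1.88). Averaged over genotypes the AFP log2 difference was -3.23 ± 0.31 (SE), a 9.37-fold lower signal (limma, adjusted P value 7.4e-13), and -3.07 ± 0.28 without fetus 632. It was -2.62 ± 0.57 in LW (adjusted P value 0.00107), -4.07 ± 0.68 in MS (3.22e-05, and -3.42 ± 0.63 without fetus 632), -3.52 ± 0.57 in LWMS (5.65e-06) and -2.71 ± 0.66 in MSLW (0.00337). The MSLW call was lost with slide as a block and without its day 110 fetus 476 or 688 (adjusted P values 0.0117, 0.0158 and 0.0183). On each of the 8 slides, taken alone, the mean of the day 110 arrays was below that of the day 90 arrays, by -4.75 to -1.20.

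The second AFP probe, A_72_P442745, gave the same order of ages at a dimmer signal. It passed the filter only through groups of day 90, so its fall is no separate support for that of the first probe. The MS fetuses were at -3.35 to -2.02 on day 90 (median -3.01) and at -7.87 to -4.32 on day 110 (median -6.49), and the LWMS fetuses at -3.47 to -1.69 (median -2.35) and at -7.44 to -4.88 (median -6.71). Again no day 110 fetus of MS or LWMS reached the day 90 range. At day 110 this AFP probe was well above background in 1 of 9 LW, 2 of 7 MS, 2 of 9 LWMS and 1 of 6 MSLW fetuses, so that its size of change is compressed by the background. The log2 difference averaged over genotypes was -2.80 ± 0.22 (adjusted P value 3.87e-16). In LW it was -1.40 ± 0.40 (0.0156), which missed the threshold. Over the 63 fetuses the AFP probes correlated at r = 0.88.

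**Figure D2:**
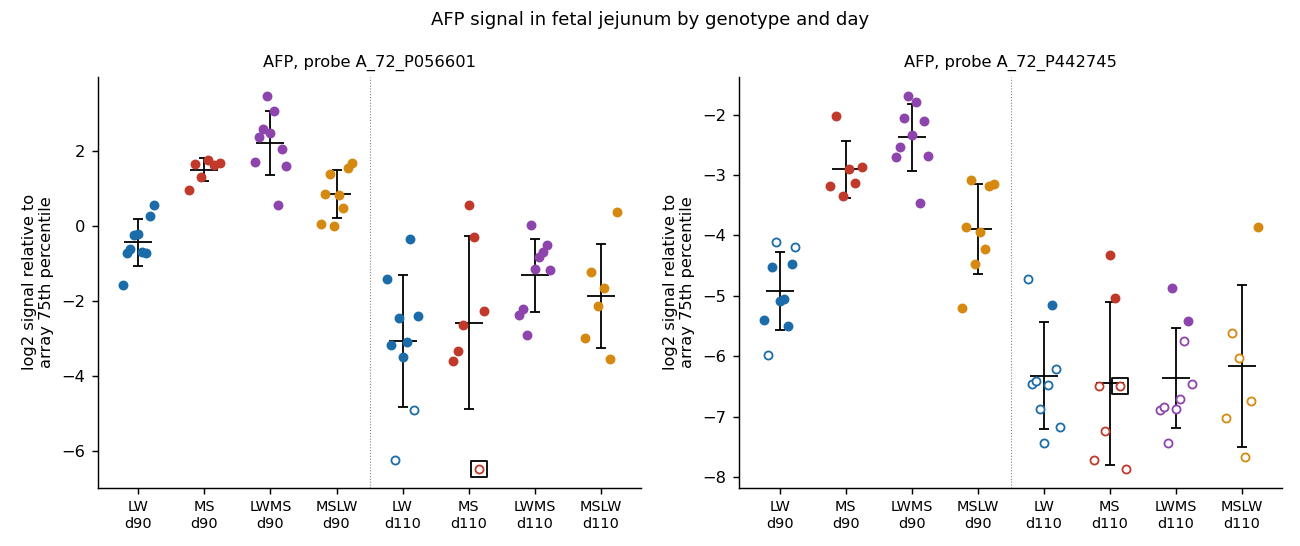
AFP signal of each fetus (log2 relative to the array's 75th percentile) on its 2 probes, by genotype and day; filled points were well above background, open points were not, bars are the group mean ± SD, and the square marks fetus 632. In MS and in LWMS every day 110 fetus lies below every day 90 fetus on both probes.

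At day 90 the AFP signal also followed the breed of the sow. On A_72_P442745 the LW fetuses spanned -5.99 to -4.11 and the MS fetuses -3.35 to -2.02 without overlap, a log2 difference of 2.02 ± 0.45 (adjusted P value 0.00171). Fetuses of MS sows were higher than those of LW sows by 1.76 ± 0.31 at this age, the mean over both sire breeds (6.34e-05), and 14 of the 17 fetuses of LW sows lay below all 15 fetuses of MS sows. Litter mates share the breed of the sow, so the SE and P value of a sow contrast do not measure the spread between sows. On A_72_P056601 the sow difference at day 90 was 1.64 ± 0.44 (0.013), and the purebreds did not overlap there either, although their AFP difference of 1.93 ± 0.64 was not called (0.0555). The contrast of sow breeds at a single age was added after the values had been seen. Averaged over both ages, AFP accounted for the 2 member probes called for sow breed, at 1.08 ± 0.31 (0.0118) and 0.80 ± 0.22 (0.00781). The change of the AFP sow difference with age was -1.93 ± 0.44 on A_72_P442745 (0.023), but at day 110 that probe was near background in most fetuses, which limits any difference there. On A_72_P056601, which was above background in most of them, it was -1.13 ± 0.62 (0.528) and was not called.

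TF fell with age in 3 of the 4 genotypes on its brightest probe, A_72_P308693. On this probe LW fetuses spanned -0.96 to 0.54 at day 90 (median -0.52) and -3.57 to -0.86 at day 110 (median -2.16). MS fetuses spanned 0.60 to 2.50 at day 90 (median 1.65) and -4.34 to 0.86 at day 110 (median -0.96), or down to -2.59 without fetus 632. LWMS fetuses spanned 0.23 to 1.96 at day 90 (median 0.67) and -2.53 to 0.15 at day 110 (median -1.09), with no overlap. The MSLW ages overlapped throughout, from -1.01 to 1.59 at day 90 (median 0.45) and from -0.64 to 0.59 at day 110 (median -0.04). The TF log2 difference averaged over genotypes was -1.70 ± 0.23, which is 3.25-fold lower (adjusted P value 1.34e-08). In the genotypes it was -1.65 ± 0.42 in LW (0.00525), -2.92 ± 0.50 in MS (4.52e-05, and -2.40 ± 0.45 without fetus 632), -2.04 ± 0.42 in LWMS (0.000255) and -0.20 ± 0.48 in MSLW (0.845). The LW call was lost without any 1 of the fetuses 484, 500 and 736 of day 90 or 557, 670 and 850 of day 110 (adjusted P values 0.0106 to 0.0183). No test set MSLW alone against the other genotypes. The changes with age of the TF sow difference (-1.55 ± 0.46, 0.1) and sire difference (0.29 ± 0.46, 1), each of which pools MSLW with another genotype, were not called. The TF signal was lower at day 110 on all 8 slides, by -2.35 to -0.79. Averaged over genotypes the TF probes O10046 and A_72_P318598 gave -1.69 ± 0.24 and -1.71 ± 0.24, and the dim A_72_P687306 gave -0.44 ± 0.13, below the size needed for a call. In LW O10046 was called (-1.64), A_72_P318598 was called only without fetus 632 (-1.58), and A_72_P687306 was not called (-0.10). In LWMS A_72_P687306 was not called (-0.49), whereas in MS it was (-1.23).

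TF was higher in MS than in LW at day 90. All 6 MS fetuses lay above all 9 LW fetuses on A_72_P308693, and the log2 difference was 2.01 ± 0.47 (4.03-fold, adjusted P value 0.00288). It was 1.96 ± 0.49 on A_72_P318598 (0.00569) and 1.34 ± 0.27 on A_72_P687306 (0.000481), and 1.83 ± 0.49 on O10046 (0.0113), which was called only without fetus 632 (0.00521). The A_72_P308693 call was lost without MS fetus 827 or 524 (0.0121 and 0.0155). Fetuses of MS sows exceeded those of LW sows by 1.37 ± 0.32 at day 90 (0.00366), and fetuses of MS sires exceeded those of LW sires by 0.79 ± 0.23 over both ages (0.0217). Without fetus 632 the sow difference over both ages (0.72 ± 0.20, 0.00808) and the sire difference at day 110 (1.19 ± 0.29, 0.0114) of TF were called as well.

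SERPINA1 fell in LW on both tested probes and in LWMS on 1 of them. On A_72_P173811 the LW fetuses spanned 0.09 to 2.71 at day 90 (median 2.06) and -1.32 to 0.46 at day 110 (median -0.10), and 8 of 9 day 90 fetuses lay above all day 110 fetuses. The MS fetuses spanned only -0.27 to 0.69 at day 90 (median 0.15), and -0.25 to 2.35 at day 110 without fetus 632 (median 0.65), which itself was at -2.87. The LWMS median went from 1.28 to -0.10, and the MSLW median from 0.58 to -0.33. The SERPINA1 log2 difference with age was -2.12 ± 0.42 in LW (adjusted P value 0.000248), -1.46 ± 0.42 in LWMS (0.00855), -1.35 ± 0.48 in MSLW (0.0522) and 0.22 ± 0.49 in MS (0.85, and 0.76 ± 0.44 without fetus 632, 0.324). The second SERPINA1 probe, A_72_P795910, gave -2.06 ± 0.40 in LW (0.000204) and -1.19 ± 0.40 in LWMS (0.0255, not called). The LWMS call on A_72_P173811 was lost in 15 of 72 alternatives, with quantile normalization, median centring or no filter on dim probes and on leaving out any 1 of 12 LWMS fetuses (adjusted P values 0.012 to 0.0293). Averaged over genotypes the SERPINA1 difference was -1.17 ± 0.23, 2.26-fold lower (2.47e-05), and the day 110 mean was lower on all 8 slides, by -1.97 to -0.48.

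At day 90 SERPINA1 was lower in MS than in LW by -1.67 ± 0.46 (adjusted P value 0.0156), which was past the threshold only without fetus 632 (0.00327), as was the case for A_72_P795910 (-1.56 ± 0.44, 0.0189, and 0.00877 without fetus 632). At day 110 the SERPINA1 difference on A_72_P173811 was 0.67 ± 0.44 (0.387), or 1.21 ± 0.40 without fetus 632 (0.0369), and was not called. The difference between the purebreds in their change with age was 2.34 ± 0.64 (0.23), and 2.88 ± 0.57 without fetus 632 (0.0156), neither of which reached the threshold of 0.01. Of all tested probes 0.0173% were called for this interaction and no member was, 6 of 20 being under an unadjusted P value of 0.05. With MS sires SERPINA1 was lower than with LW sires at day 90, by -1.12 ± 0.32 (0.0395), where FGB, the other member called, was higher. FGB was tested only through MS day 90, a group with MS sires, so its call is no support. The MSLW day 90 fetus 450 had the highest SERPINA1 signal of the series, 3.33, and the lowest TTR signal but that of fetus 632.

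TTR went the other way. On A_72_P657173 the LWMS fetuses rose from -3.23 to -1.81 at day 90 (median -2.56) to -2.31 to -0.44 at day 110 (median -1.08), and 7 of the 9 day 110 fetuses were above all day 90 fetuses. The MSLW range moved from -4.64 to -2.14 (median -2.61) to -2.24 to -1.44 (median -1.69). The MS range was -3.36 to -1.49 at day 90 (median -2.02) and, without fetus 632 at -6.58, it was -1.82 to 0.03 at day 110 (median -1.01). The LW fetuses overlapped throughout, with medians of -2.42 and -2.70. With all 63 arrays the age difference averaged over genotypes was 0.69 ± 0.23 on this TTR probe (adjusted P value 0.0155, not called), 0.82 ± 0.25 on A_72_P302669 (0.00587) and 0.78 ± 0.23 on A_72_P698033 (0.00499). Without fetus 632 the A_72_P657173 difference was 0.89 ± 0.16 (6.86e-06), and in LWMS it was 1.28 ± 0.29 (0.000778). That setting gave 9 called probes in LWMS, 3 of them TTR probes that were higher at day 110 (11.0% of all probes). The TTR probes A_72_P302669 and A_72_P698033 share a run of 52 bases, so that their calls are not separate readings. The TTR probes correlated with each other at r = 0.97 to 0.98, and on 7 of 8 slides the day 110 mean was the higher.

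The TTR difference between purebreds at day 110 rested on whether fetus 632 was counted. With it the MS and LW fetuses differed by 0.70 ± 0.46, and no member probe was called at this age (4.99% of all probes), nor was any under an unadjusted P value of 0.05. Without it the TTR difference was 1.51 ± 0.32, a 2.84-fold higher signal in MS (adjusted P value 0.000827), 5 of the 6 remaining MS fetuses lay above all 9 LW fetuses, and all 3 TTR probes were called (5.41% of all probes).

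**Figure D3:**
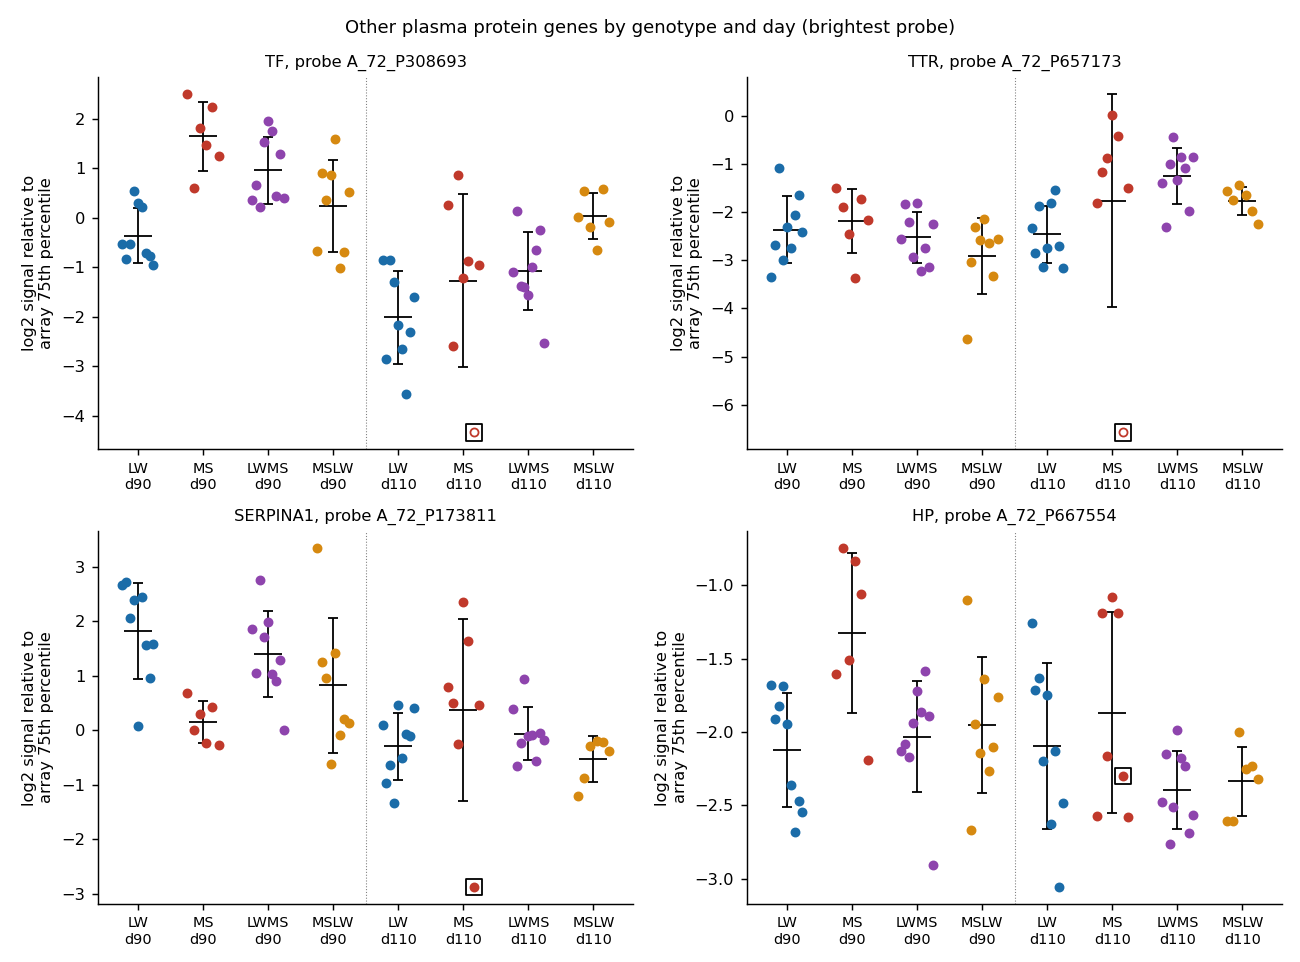
Signal of each fetus (log2 relative to the array's 75th percentile) on the brightest probe of TF, TTR, SERPINA1 and HP, by genotype and day; filled points were well above background, open points were not, bars are the group mean ± SD, and the square marks fetus 632. TF lies lower at day 110 in LW, MS and LWMS but not in MSLW, and TTR lies higher in LWMS.

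HP differed little. On A_72_P667554 the group medians ran from -2.48 (LWMS day 110) to -1.28 (MS day 90), and all ages overlapped in every genotype. The age difference was -0.31 ± 0.12 (adjusted P value 0.0259, not called). Of the 6 HP probes 1 was called for age, A_72_P568194 (-0.91 ± 0.26, 0.00392), which passed the filter only through MS day 90 and was fitted without 1 MSLW day 110 array whose spot was an outlier. At day 90 HP was higher in MS than in LW by 0.80 ± 0.24 on A_72_P667554 (0.0289, not called) and by 0.66 ± 0.16 on A_72_P657000 (0.00545, called). For any difference between the 8 groups, limma's F test called A_72_P657000 and the identical A_72_P178006 and O9209. It also called A_72_P667554 without fetus 632. The HP probes correlated with each other at r = 0.45 to 0.83.

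FGB was seen above background in 6 of 6 MS day 90 fetuses, from -5.23 to -3.90 (median -4.75), in 4 of 8 MSLW and 1 of 9 LWMS fetuses of that age, and in none of the 9 LW fetuses. The FGB signal of MS over LW at day 90 was at least 1.59-fold higher, counting a dim array at its lowest detectable signal (measured means -4.62 and -6.73, limma's adjusted P value 0.00113). At day 110 it was well above background in 2 of 31 fetuses, and all 7 MS fetuses lay below all 6 MS fetuses of day 90. The FGB age difference averaged over genotypes was -0.83 ± 0.22 (0.00185), and -0.08 with a normexp background correction (0.523). Fetuses of MS sires were higher by 0.87 ± 0.22 over both ages (0.0066), most of whose arrays were at background. FGB was tested only through MS day 90, so the filter favoured its breed, age and sire differences.

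ALB gave no call in any comparison. On A_72_P579929 the LW fetuses spanned -6.10 to -3.87 at day 90 and -6.70 to -2.90 at day 110, and the group medians of all 8 groups lay between -5.64 and -4.90. The values -3.87 and -2.90 were not well above background on their arrays. The largest of the ALB differences tested was the change with age on A_72_P575875 in LW, -1.25 ± 0.47 (unadjusted P value 0.00971, adjusted 0.0735). FGA and FGG were not tested. The group means of FGA were between -7.81 and -5.91 and those of FGG between -7.73 and -5.27.

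**Figure D4:**
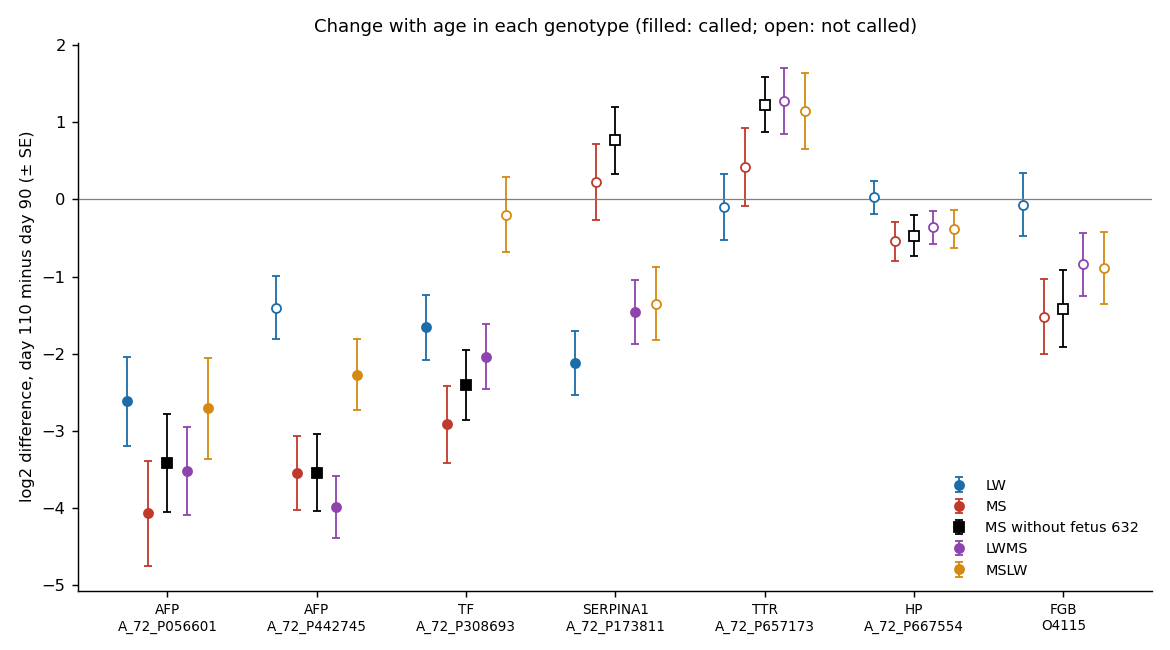
Log2 difference (day 110 minus day 90, ± SE) in each genotype for the AFP, TF, SERPINA1, TTR, HP and FGB probes described; filled symbols were called, open symbols were not, and black squares are MS without fetus 632. AFP is below 0 in all 4 genotypes, whereas TF in MSLW (-0.20 ± 0.48) and SERPINA1 in MS (0.22) are near 0 and were not called.

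Over the set, 6 member probes were called between MS and LW at day 90, in AFP, TF, HP and FGB, and all were higher in MS. The FGB probe is no support here, since it was tested only because of its signal in MS day 90. Of all tested probes 3.58% were called and 1.36% were called as higher in MS. Without fetus 632 there were 9 calls (4.13% of all probes), 7 of them higher in MS and the 2 SERPINA1 probes lower. For sow breed over both ages 2 of 20 were called (16.0% of all probes, and 7.26% as higher with an MS sow, as both members were), and 8 without fetus 632 (21.3%), in AFP, TF and TTR. This count moved with the processing and was 5 to 10 under 6 other settings, given at the end. For the sow breed by age interaction 1 was called (0.388%). Taken at each age, the sow contrast gave 7 calls at day 90 (5.65%), in AFP, TF and HP, and 0 at day 110 (9.97%), where 2 were under an unadjusted P value of 0.05 by limma. Without fetus 632 the day 110 sow contrast called the 3 TTR probes and 1 SERPINA1 probe (12.5%). Sire breed over both ages gave 5 calls, in TF, FGB and HP (6.95% of all probes, and 3.11% as higher with an MS sire). The FGB call is no support here either, since MS day 90 is a group with MS sires. The HP call was on A_72_P178006 (0.38 ± 0.11, 0.0267), and the identical HP probe O9209 was not called (0.25 ± 0.12, 0.258). At each age the sire contrast gave 2 calls at day 90 (2.10%), on SERPINA1 and on FGB, the latter with the same limit. At day 110 it gave 0 (2.14%), with 3 under an unadjusted P value of 0.05 by limma, and without fetus 632 it called 3 TF probes there (2.38%). Without it the sire contrast also gave 6 calls over both ages and 3 at day 90. The number of all probes under an unadjusted P value of 0.05 by limma moved as well. It went from 7643 to 7801 over both ages and from 4735 to 5144 at day 90. The sire by age interaction called 0 member probes and 0% of all probes by limma, with 2 members and 718 of all probes under an unadjusted P value of 0.05.

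**Figure D5:**
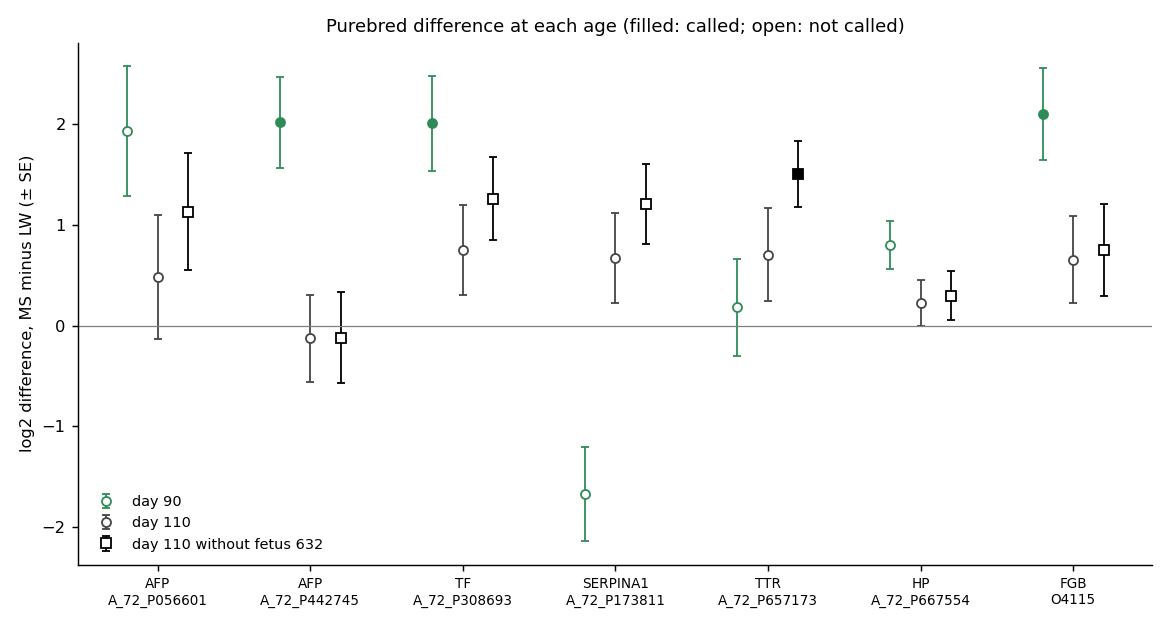
Log2 difference between purebreds (MS minus LW, ± SE) at day 90 and day 110 for the same probes; filled symbols were called, open symbols were not, and black squares leave out fetus 632. AFP (A_72_P442745), TF and FGB are called at day 90, and TTR is called at day 110 only without fetus 632 (1.51 ± 0.32).

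Markers of other cell types moved with some of these groups, and their part in the results was not tested. Of 13 hepatocyte markers 9 had a probe, and 6 of these (TDO2, CYP7A1, CYP8B1, SLC10A1, UROC1 and F9) were too dim to be tested. The bile acid enzyme CYP7A1 passed on 7 of 63 arrays and the bile acid carrier SLC10A1 on 4. The summed level of the 9 markers was between -1.80 and 0.83 in LW and between -0.67 and 0.81 in MS at day 90, and from -2.14 to 0.14 and from -1.78 to -0.23 at day 110. BHMT, an enzyme of methionine metabolism, fell with age by 2.11 on the log2 scale and was higher in MS (mean -1.45) than in LW (mean -5.02) at day 90. Of 6 tested red cell markers, 4 were lower at day 110, among them AHSP (-1.80 ± 0.23) and HBB (-1.68 ± 0.28), and AHSP and HEMGN were higher in MS than in LW at day 90. The summed level of the 7 red cell markers with a probe, ALAS2 being untested, was highest in MS day 90, from 4.28 to 5.48, against 3.70 to 4.63 in LW day 90. Of 19 enterocyte markers, 8 were higher at day 110 and 2 lower, and APOC3 (3.90 ± 0.38), FABP1 (2.55 ± 0.16) and ALPI (2.47 ± 0.34) rose most. The sole mesothelial marker with a probe, WT1, fell (-2.46 ± 0.23), 3 of 7 neuronal and glial, 1 of 8 smooth muscle, 1 of 6 crypt and 1 of 6 endothelial markers fell, 2 of 7 macrophage markers rose, and 0 of 7 lymphocyte and 0 of 3 exocrine pancreas markers were called. Without fetus 632 the enterocyte markers gave 9 higher and 2 lower, with SLC15A1 added and KRT19 in place of ANPEP, the crypt marker CCNB1 was not called and the lymphocyte marker CD79B fell.

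Other plasma protein genes did not share 1 direction. Of 30 listed genes 19 were tested, 4 rose and 4 fell with age, and the median difference was -0.11. A2M, 1 of the 4 that rose (0.59 ± 0.18), was not called without fetus 632 (0.46 ± 0.15). RBP4, the retinol carrier that travels with TTR, fell by 3.50 on the log2 scale (adjusted P value 1.78e-15), and APOH and prothrombin (F2) fell by 3.40 and 1.59. HPX, the haem carrier, rose by 2.69 ± 0.28 (1.19e-11), and ITIH3 and APCS rose too (adjusted P values 5.05e-12 and 0.000968). AFM, the neighbour of AFP, was not called (0.16 ± 0.17, 0.5). At day 90 ITIH4, an acute phase protein, was higher and SERPINA7, a thyroid hormone carrier, lower in MS than in LW. Of 12 tested liver-enriched transcription factors NR5A2 was called with age (-0.70 ± 0.08), as was GATA4 without fetus 632 (0.97 ± 0.26, adjusted P value 0.00212). HNF4A, ONECUT1 and NR5A2 were called as higher with an MS sow and GATA4 as lower. Of all 40515 tested probes, 2941 were called as higher with an MS sow and 3527 as lower. In the acute phase signalling list (12 tested, median 0.17), STAT3 and IL1R1 rose by 0.56 and 0.90 and IL6 fell by 1.51.

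Genes that handle the cargo of these proteins split by direction. Of 15 tested genes for iron, haem and albumin handling 4 rose and 3 fell with age (median 0.08). The iron carrier SLC11A2 rose by 2.26 ± 0.25 (adjusted P value 6.56e-11), and the transferrin receptor TFRC rose by 0.68 ± 0.14 (5.48e-05), as TF fell. The endocytic receptors LRP2 and CUBN, and AMN, the partner of CUBN, fell by 1.37, 0.96 and 0.62. TFRC was also higher in MS than in LW at day 90.

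Over the 63 fetuses, which share age and genotype, the levels of AFP and TF correlated at r = 0.65, but at 0.14 once group means were taken out, and at -0.11 without fetus 632. For AFP and SERPINA1 the values were 0.49, 0.36 and 0.16. Among 16403 probes of 8212 named genes, the profiles most like that of AFP A_72_P056601 were those of SSTR5 (r = 0.80), AWN (0.78) and DUSP9 (0.76), which were 0.40, 0.29 and 0.26 within groups, and 0.25, 0.24 and 0.09 within groups without fetus 632. For TTR they were GHRL (0.83), CCL25 (0.77) and TRPV6 (0.76), and the within-group values without fetus 632 were 0.64, 0.39 and 0.54. For TF they were LECT2 (0.73), CASP1 (0.72) and CYP11A1 (0.72), with within-group values of 0.47, 0.49 and 0.23, or 0.26, 0.28 and 0.38 without fetus 632. For SERPINA1 they were TOMM20 (0.68), CTDSPL (0.66) and MYH7 (0.65), with within-group values of 0.42, 0.36 and 0.53, or 0.32, 0.35 and 0.35 without fetus 632. HP was most like CRISP3 (0.64), S100A12 (0.63) and KCNIP4 (0.61), FGB like LRP2BP (0.64), STMN1 (0.63) and GLRX5 (0.62), and ALB like ADAP1 (0.69), NR3C2 (0.63) and DPPA5 (0.62). The within-group values were 0.62, 0.53 and 0.54 for HP, 0.59, 0.57 and 0.57 for FGB, and 0.71, 0.61 and 0.64 for ALB. These FGB and ALB probes were well above background on 13 and 30 of 63 arrays, so many of their readings here were near background.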

How the data were processed

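RNA of 63 mid-jejunum samples was labelled with Cy3 and hybridised to 1-colour Agilent porcine arrays. The authors deposited the scanner output of Agilent Feature Extraction 10.10.1.1, whose processed signal is an intensity already corrected for background, and a table of log2 values that was quantile normalized from median signals by the authors. Outlier spots and 1319 control spots were left out, and 0 spots were saturated. From the intensities, log2 values minus each array's 75th percentile were computed, and replicate spots of a probe were averaged. A probe was tested if 75% or more of the arrays in some group had it well above background (40515 of 60305). limma 3.58.1 (R 4.3.3) fitted 8 group means, and P values were adjusted by Benjamini-Hochberg over all tested probes. Age and purebred differences were called at an adjusted P value of at most 0.01 and a log2 difference of at least 0.5, the breed by age interaction and the F test at 0.01, and sow and sire contrasts at 0.05. The study's random sow effect could not be fitted, so P values measure the spread between fetuses and litter mates are treated as independent. Age, the purebred contrast and sow breed differ only between litters. For these contrasts the relevant spread is that between sows, which was not estimated. The tests were checked on simulated data with independent fetuses, which cannot check the treatment of litter mates. All member probes are reported; each gene's brightest probe over the 63 arrays represents it, with the 3 named genes of the highest Pearson r and up to 4 called genes of each list. The members and lists were chosen with earlier results of these data known, and the fits without fetus 632 and the sow and sire contrasts at each age were added after seeing the data. Some probe sequences and 1 marker gene are not reported here. Sows were not analysed here, nor was a genome, so no positions are given. Alternatives were the background correction, scaling, filter, slide as a block, array weights, the authors' values and leaving out fetuses; their effects are given at the end.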

Additional observations from a re-analysis of the deposited data

Results flagged for a closer look

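On the brightest probes, 5 of 56 groups of fetuses held a value that stood apart from the rest of its group; chance alone flags about 1 in 20. TTR was at -6.58 in MS day 110 fetus 632 and at -4.64 in MSLW day 90 fetus 450. ALB was at -2.21 in MSLW day 90 fetus 900 and at -2.90 in LW day 110 fetus 469, in both cases higher than its group. The value of fetus 900 was well above background but that of fetus 469 was not, so the latter does not show more ALB. HP was at -2.90 in LWMS day 90 fetus 954, lower than its group.

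The change with age of the difference between the sow breeds passed its test on the AFP probe A_72_P442745, at -1.93 ± 0.44 on the log2 scale (MS sow minus LW sow at day 110, minus the same at day 90; limma, adjusted P value 0.023). At day 110 this probe was well above background in at most 2 fetuses of any group, which limits any difference there, and the other AFP probe gave -1.13 ± 0.62 (0.528).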

How the results depend on the processing

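No paired analysis was possible because the fetus numbers of the labels are unique and pair no fetuses across groups. No result reversed. The number of member probes called, given first as reported, was 6 for age in LWMS and 10 with array weights, 2 for age in MSLW and 1 with the normexp correction or slide as a block, 6 for MS minus LW at day 90 and 13 with array weights, and 0 at day 110 and 3 with array weights. Calls over all 40515 tested probes moved too. With array weights they went from 3996 to 5903 for age in LWMS. For MS minus LW they went from 1449 to 2828 at day 90 and from 2023 to 6365 at day 110. For age in MSLW 2198 became 1865 with normexp and 2394 with slide as a block. For the breed by age interaction 0 became 3 with array weights, and over all probes 7 became 53. For sow breed 2 became 7 with normexp, 5 with quantile normalization, 8 with median centring, 10 with the authors' processed values, 9 with array weights and 8 without LW fetuses 484 and 469. For the sow breed by age interaction 1 became 4 with normexp, 0 with quantile normalization, 3 with the authors' processed values and 2 with array weights. Over all probes 157 became, in the same order, 357, 181, 281 and 681. For sire breed 5 became 3 with median centring, and over all probes 2816 became 1989. The cause of these moves was not tested. Leaving out 1 fetus at a time gave 9 to 12 calls for age, 3 to 7 in LW, 5 to 6 in MS, 5 to 9 in LWMS, 1 to 2 in MSLW, 3 to 9 for MS minus LW at day 90, 0 to 3 at day 110, 2 to 8 for sow breed, 1 to 3 for its interaction with age, 3 to 7 for sire breed and 10 to 16 for any difference; for sow breed the 8 and at day 110 the 3 came without fetus 632. The TF sire call was lost with median centring (0.74, adjusted P value 0.0542). Median centring moved the median of all probes for sow breed from 0.02 to 0.12, and the probes called as higher with an MS sow from 2941 of 6468 to 4863 of 6553. The number of arrays and, for ALB, FGA, FGB and FGG, the signal over background limit the precision.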
